A study of Homo sapiens with 14 samples.

Results

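The genes described here are the 75 protein-coding genes that carry the symbol of a mitochondrial ribosomal protein (MRPL or MRPS followed by a number) and that reached a mean of 10 or more counts in the DMSO libraries, out of 28395 genes listed in the deposited tables. In all, 86 symbols matched. Of the 11 left out, 4 were antisense genes, 3 were pseudogenes, 1 was not protein-coding and 3 were protein-coding genes below the count minimum. The 75 genes divide into 50 proteins of the large subunit and 24 of the small subunit, and the last one, MRPS36, keeps its symbol although its product is now known as a component of the alpha-ketoglutarate dehydrogenase complex. Of the large subunit genes 30 encode proteins with a counterpart in the bacterial ribosome and 20 encode mitochondria-specific proteins, and for the small subunit these numbers were 15 and 9.

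RNA was sequenced from CWR22Rv1 cells, a human prostate cancer line, and each group is this same line under a different addition to its medium for 72 h. Of the 14 libraries 3 came from cells given the solvent DMSO and 3 from cells given Fucotrim I at 30 μM. Fucotrim II was used at 60 μM (2 libraries analysed), SGN-2FF at 100 μM (3) and P-SiaFNEtoc at 2 μM (3). Fucotrim I and Fucotrim II are derivatives of rhamnose-1-phosphate that act on the synthesis of GDP-fucose, SGN-2FF is a fluorinated fucose, and P-SiaFNEtoc is a fluorinated sialic acid that blocks sialyltransferases. All groups come from 1 cell line with no genetic change named, and the labels give no difference between groups but the compound added. Whether groups also differed in culture or library batch is not given in the sources used here. Since the doses differ between compounds, each inhibitor was compared with DMSO and not with another inhibitor. All 4 comparisons share the same DMSO libraries.

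The mitochondrial ribosome makes the few proteins encoded in mitochondrial DNA, which are core subunits of the respiratory chain and ATP synthase. Its rRNAs are transcribed in the mitochondrion, whereas all of its proteins are encoded in the nucleus, made in the cytosol and imported. Compared with its bacterial relatives it contains less rRNA and more protein, and the proteins without bacterial counterparts cover much of its surface.

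Libraries held between 12553094 and 19981453 counts on genes. The luminal markers FOXA1 and KRT8 stood at 432 and 477 CPM in DMSO, that is counts per 1e+06 counts on genes after scaling between libraries. Of 9 markers of immune, stromal, endothelial and basal cells, CD3E was at 0 and COL1A1, a collagen gene, was the only one above 1 CPM, at 17.3 CPM. The markers moved with treatment, as 6 of 8 luminal markers were called higher with each inhibitor (KRT8 rose to 800 CPM with Fucotrim I) and COL1A1 rose with Fucotrim II by 0.59 on the log2 scale (edgeR adjusted p = 0.00185), and their part in the values below was not tested. In RNA from whole cultures, less RNA per cell and fewer cells with that RNA cannot be told apart.

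In DMSO the 75 genes took between 0.556% and 0.571% of all counts. Their mean levels ranged from 3.39 CPM (MRPL23) to 205 CPM (MRPS35), with a median of 59.1 CPM. Divided by the length of the canonical transcript, so that genes can be compared with each other, the highest DMSO means were those of MRPL24 (199 CPM per kb), MRPL51 (195), MRPS34 (171), MRPL41 (155) and MRPL12 (151). MRPL24 lies near the exit of the tunnel through which the new protein leaves, and MRPL12 forms the flexible stalk that recruits translation factors. MRPL23, MRPS36 and MRPS18C had the lowest values per length, at 5.03, 5.80 and 6.38 CPM per kb. The canonical transcript of some genes is far longer than the coding sequence, as for MRPL42 (15557 bases, of which 426 are coding), and their level per length is lowered by that choice.

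A few ribosomal protein genes were close to absent from the tables. MRPS18B, a small subunit gene, had 0 counts in every one of the 14 libraries, MRPL45, whose protein lies at the tunnel exit and attaches the ribosome to the inner membrane, had 0 to 2 counts per library, and MRPS24 had 2 to 15. MRPS18B lies in the major histocompatibility region of chromosome 6. Between 28 and 34 Mb of this chromosome 136 of 184 protein-coding genes (73.9%) had a mean under 1 count in DMSO, against 146 of 810 on the rest of it. The block contains genes used by nearly all cells, such as TUBB, a tubulin, and GNL1, both at 0 counts, so a count of 0 here is a listed value and not a measure of expression. Around MRPL45, between 36 and 40 Mb of chromosome 17, the share was 30 of 73 genes (41.1%), against 233 of 1060 genes elsewhere on that chromosome. MRPS24 shares 89.4% of its 100-base exonic windows with the readthrough gene URGCP-MRPS24. How reads with more than 1 possible position were counted is not given in the sources used here, and its part in these low counts was not tested.

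To ask whether the inhibitors changed the mitochondrial ribosomal protein genes as a group, their summed level was compared first. The sum was 5463 CPM ± 86.0 (SD, n = 3) in DMSO, 5482 ± 72.6 (n = 3) with Fucotrim I, 5322 ± 362 (n = 2) with Fucotrim II, 5624 ± 89.8 (n = 3) with SGN-2FF and 5580 ± 192 (n = 3) with P-SiaFNEtoc. The sums of the Fucotrim I, Fucotrim II and P-SiaFNEtoc libraries overlapped those of DMSO. All 3 SGN-2FF libraries (5570 to 5728 CPM) lay above the DMSO libraries (5396 to 5560 CPM), by a margin smaller than the spread within either group. These sums depend on the scaling between libraries. As an unscaled share of all counts, the genes took 0.525% to 0.556% with Fucotrim I and 0.463% and 0.516% with Fucotrim II. They took 0.565% to 0.576% with SGN-2FF and 0.564% to 0.588% with P-SiaFNEtoc, beside 0.556% to 0.571% in DMSO. On that scale both Fucotrim II libraries lay below DMSO, and the Fucotrim I libraries lay at or below the lowest DMSO library. Fucotrim I gave a median log2 fold change over the 75 genes of 0.02, Fucotrim II of −0.06, SGN-2FF of 0.04 and P-SiaFNEtoc of 0.04, beside medians of 0.00, 0.01, 0.00 and 0.00 over all genes tested.

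Single genes moved in both directions with the Fucotrims. With Fucotrim I 11 of the 75 genes rose and 12 fell at an adjusted p under 0.05 in edgeR's quasi-likelihood framework, with p-values adjusted by Benjamini-Hochberg over all genes tested. That is 30.7% of the genes, below the 43.8% of all 14188 genes that passed the same test. With Fucotrim II 9 rose and 23 fell (42.7%, against 51.4% of all genes), with SGN-2FF 7 rose and 1 fell (10.7%, against 20.6%), and with P-SiaFNEtoc 2 rose and 3 fell (6.67%, against 16.3%). Without overlap between libraries, 14 genes lay above DMSO and 18 below it with Fucotrim I (42.7%, against 52.6% of all genes). These counts were 13 and 31 with Fucotrim II (58.7%, against 67.6%), 16 and 2 with SGN-2FF (36.4% of all genes) and 10 and 5 with P-SiaFNEtoc (33.7% of all genes). In each comparison the share called was thus below the background share. By direction, the background shares higher and lower were 21.6% and 22.1% with Fucotrim I, 25.6% and 25.7% with Fucotrim II, 11.5% and 9.08% with SGN-2FF, and 9.02% and 7.33% with P-SiaFNEtoc.

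**Figure D1:**
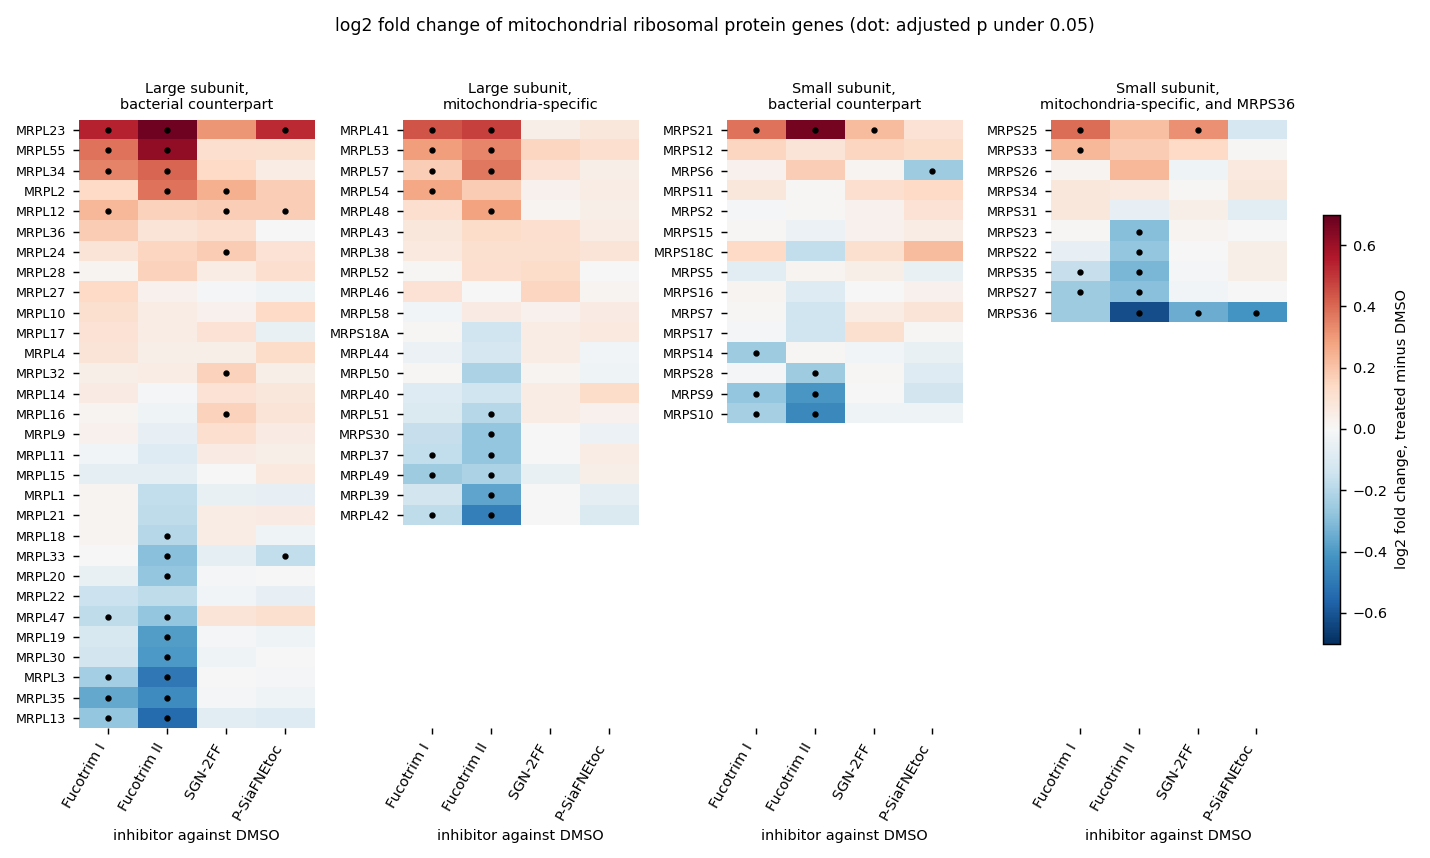
Heat map of the log2 fold change (treated minus DMSO, colour scale from −0.7 to 0.7) of the 75 genes, in 4 blocks by subunit and by bacterial counterpart (MRPS36 at the foot of the last block), with 1 column per inhibitor and genes ordered by the mean of both Fucotrims. Black dots mark an adjusted p under 0.05 (edgeR). Both Fucotrim columns hold red and blue genes in every block, while the SGN-2FF and P-SiaFNEtoc columns are paler, with 8 and 5 dots.

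Changes were small. Fitted log2 fold changes ran from −0.36 to 0.54 with Fucotrim I, from −0.62 to 0.68 with Fucotrim II, from −0.35 to 0.32 with SGN-2FF and from −0.42 to 0.52 with P-SiaFNEtoc. Since all comparisons share the DMSO libraries, the values of a gene with different inhibitors are given side by side below and are not independent of each other. The Fucotrim II counts rest on few libraries. Without its replicate 1 they were 23 higher and 21 lower, and without its replicate 2 they were 11 higher and 30 lower.

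Calls with the Fucotrims were spread over both subunits and both evolutionary classes, each at a share below that of all genes. With Fucotrim I 8 of 50 large subunit genes rose and 7 fell, and of 24 small subunit genes 3 rose and 5 fell. With Fucotrim II 8 rose and 15 fell in the large subunit, and 1 rose and 7 fell in the small subunit. Among proteins with bacterial counterparts 5 of 45 rose and 7 fell with Fucotrim I, and 5 rose and 12 fell with Fucotrim II. Among the 29 mitochondria-specific ones 6 rose and 5 fell with Fucotrim I, and 4 rose and 10 fell with Fucotrim II. No difference between these classes was tested.

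The small subunit gene MRPS21 (chr1:150293861-150308979, plus strand, hg38) had the smallest adjusted p among the genes that rose with SGN-2FF, and likewise for each Fucotrim. Its protein corresponds to bacterial S21, which in bacteria sits on the platform of the small subunit. MRPS21 measured 110, 109 and 111 CPM in the DMSO libraries, 144, 135 and 149 CPM with Fucotrim I and 170 and 183 CPM with Fucotrim II. With SGN-2FF it was at 133, 128 and 120 CPM, and with P-SiaFNEtoc at 114, 114 and 124 CPM. The libraries of each inhibitor lay above all DMSO libraries. Fucotrim I raised MRPS21 by 0.38 ± 0.05 (SE) on the log2 scale, Fucotrim II by 0.67 ± 0.06 and SGN-2FF by 0.22 ± 0.04 (edgeR quasi-likelihood, Benjamini-Hochberg adjusted p = 8.69e-06, 3.73e-05 and 0.000762). With P-SiaFNEtoc the difference was 0.10 ± 0.04 and did not pass the test (edgeR adjusted p = 0.136). MRPS21 was also the only SGN-2FF call that held under every alternative setting tried.

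MRPL34 and MRPL57 are the other genes that rose with both Fucotrims in both the fit described and the fit with a correction for GC content given below. MRPL34 (chr19:17292609-17306843, plus strand), the counterpart of bacterial L34, was at 60.3, 51.2 and 56.9 CPM in DMSO, 75.3, 67.7 and 71.1 CPM with Fucotrim I and 68.3 and 81.8 CPM with Fucotrim II. All of these treated libraries were above DMSO, with log2 fold changes of 0.35 ± 0.07 and 0.41 ± 0.10 (edgeR adjusted p = 0.000267 and 0.00531). MRPL57, a mitochondria-specific protein of the large subunit, rose by 0.17 ± 0.06 and 0.37 ± 0.08 (edgeR adjusted p = 0.0294 and 0.00307), though with Fucotrim I 1 library, at 79.0 CPM, lay within the DMSO range of 71.5 to 79.1 CPM. That Fucotrim I call was lost without DMSO replicate 2 (edgeR adjusted p = 0.126), DMSO replicate 3 (0.122), Fucotrim I replicate 1 (0.0538) or Fucotrim I replicate 3 (0.0994).

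Further rises were seen in the large subunit. MRPL41, a mitochondria-specific protein, was at 92.3, 83.1 and 94.9 CPM in DMSO, 129, 109 and 126 CPM with Fucotrim I and 113 and 139 CPM with Fucotrim II. The groups did not overlap, and the log2 fold changes were 0.44 ± 0.07 and 0.48 ± 0.09 (edgeR adjusted p = 2.51e-05 and 0.00239). MRPL55, whose protein corresponds to bacterial L31, stood at 46.6, 44.1 and 51.2 CPM in DMSO, at 64.5, 55.5 and 63.8 CPM with Fucotrim I and at 68.0 and 77.4 CPM with Fucotrim II, again without overlap. Its log2 fold changes were 0.38 ± 0.07 and 0.62 ± 0.09 (edgeR adjusted p = 0.00026 and 0.000346). MRPL53 rose by 0.29 ± 0.08 and 0.34 ± 0.10, but 72.8% of its exonic bases lie within CCDC142 on the same strand, so its reads cannot be assigned with certainty, and its Fucotrim II call was lost without DMSO replicate 2 (edgeR adjusted p = 0.0664). MRPL23, at the tunnel exit, gave the largest fitted values with both Fucotrims and P-SiaFNEtoc (0.54, 0.68 and 0.52, with SE of 0.20, 0.23 and 0.18). It had only 2.75, 2.83 and 4.57 CPM in DMSO, overlapped DMSO with Fucotrim I and P-SiaFNEtoc, and all 3 of its calls were lost without DMSO replicate 1 (edgeR adjusted p = 0.14, 0.11 and 0.168) and without DMSO replicate 2 (0.112, 0.108 and 0.167).

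MRPS25 and MRPL2 were called with SGN-2FF and with 1 of the Fucotrims, and the difference between inhibitors was not tested. MRPS25, a mitochondria-specific protein of the small subunit, was at 74.9, 92.9 and 81.9 CPM in DMSO, 99.4, 113 and 113 CPM with Fucotrim I, and 94.1, 105 and 110 CPM with SGN-2FF. Both of these groups lay above DMSO, by 0.39 ± 0.07 and 0.32 ± 0.08 (edgeR adjusted p = 0.000285 and 0.0123). The Fucotrim II libraries, at 110 and 82.6 CPM, and the P-SiaFNEtoc libraries, at 75.4, 78.0 and 76.4 CPM, overlapped DMSO. The SGN-2FF call of MRPS25 was lost without DMSO replicate 3 (edgeR adjusted p = 0.0642), SGN-2FF replicate 2 (0.0608) or SGN-2FF replicate 3 (0.0751), and 39.1% of its exonic bases overlap NR2C2 on the opposite strand. MRPL2, the counterpart of bacterial L2 near the catalytic centre, rose by 0.38 ± 0.08 with Fucotrim II and 0.25 ± 0.06 with SGN-2FF (edgeR adjusted p = 0.0041 and 0.00529), the second of which was lost without DMSO replicate 3 (0.0518). Its Fucotrim II call was lost in a fit with libraries of the same number in the titles as a block (edgeR adjusted p = 0.0613). MRPL24, of the tunnel exit, rose with SGN-2FF from 182, 167 and 179 CPM to 201, 198 and 193 CPM, by 0.18 ± 0.04 (edgeR adjusted p = 0.00278), and MRPL16 and MRPL32, at 0.16 each, were the remaining SGN-2FF calls beside MRPL12 and MRPS21. The MRPL16 call was lost without DMSO replicate 1 (edgeR adjusted p = 0.0803), without SGN-2FF replicate 2 (0.0709) and in a fit of all 14 libraries together (0.07). The MRPL32 call was lost with DESeq2 (adjusted p = 0.108), without a filter on low counts (0.0579), in the fit of all 14 libraries (0.265), and without DMSO replicate 2 or 3 or any 1 of the SGN-2FF libraries (edgeR adjusted p from 0.0516 to 0.144).

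Among the genes that fell, MRPL3 (chr3:131462212-131502983, minus strand) encodes the counterpart of bacterial L3, which reaches towards the peptidyl transferase centre. MRPL3 was at 171, 170 and 159 CPM in DMSO, at 135, 148 and 139 CPM with Fucotrim I and at 117 and 121 CPM with Fucotrim II. Every Fucotrim library was below every DMSO library, while SGN-2FF (163, 161 and 173 CPM) and P-SiaFNEtoc (163, 161 and 172 CPM) overlapped DMSO. Log2 fold changes of MRPL3 were −0.24 ± 0.05 for Fucotrim I and −0.50 ± 0.06 for Fucotrim II (edgeR adjusted p = 0.00112 and 0.000246). With SGN-2FF and P-SiaFNEtoc it was 0.00 ± 0.04 and −0.01 ± 0.04.

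MRPL35 (chr2:86199355-86213790, plus strand), the counterpart of bacterial L35, had 68.2, 70.1 and 66.7 CPM in DMSO, 53.0, 52.3 and 54.4 CPM with Fucotrim I and 53.1 and 48.1 CPM with Fucotrim II. The groups were well separated, with log2 fold changes of −0.36 ± 0.06 and −0.44 ± 0.07 (edgeR adjusted p = 5.08e-05 and 0.000934). MRPL37, a mitochondria-specific large subunit protein, fell by 0.17 on the log2 scale with Fucotrim I and by 0.27 with Fucotrim II, from 176, 171 and 172 CPM in DMSO to 157, 149 and 156 CPM and to 135 and 153 CPM. MRPL49 fell by 0.25 and 0.22 on the same scale. For each of these genes all Fucotrim libraries lay below the DMSO libraries. The Fucotrim II call was lost for MRPL37 without DMSO replicate 1 (edgeR adjusted p = 0.0534) and for MRPL49 without any 1 DMSO library (0.073 to 0.0982) or without Fucotrim II replicate 1 (0.0649).

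The small subunit gave the same kind of separation for MRPS9, MRPS27 and MRPS10. MRPS9 (chr2:105038069-105099960, plus strand) is the counterpart of bacterial S9, whose tail contacts the tRNA in the P site. It was at 44.2, 45.7 and 43.0 CPM in DMSO, 34.4, 36.9 and 38.7 CPM with Fucotrim I and 33.9 and 32.9 CPM with Fucotrim II, which gave log2 fold changes of −0.27 ± 0.07 and −0.41 ± 0.07 (edgeR adjusted p = 0.00273 and 0.00133). MRPS27, a pentatricopeptide repeat protein, fell by 0.25 and 0.29 on the log2 scale, and MRPS10, the counterpart of bacterial S10, fell by 0.23 and 0.45, each without overlap. The Fucotrim II call of MRPS27 was lost with the replicate block by the titles (edgeR adjusted p = 0.0718). MRPS14, the counterpart of bacterial S14, fell with Fucotrim I by 0.25 (49.7, 51.1 and 47.7 CPM against 59.0, 60 and 58.4 CPM in DMSO), whereas the Fucotrim II libraries stood at 56.5 and 62.9 CPM and overlapped DMSO. In the large subunit, MRPL13 and MRPL42 fell with Fucotrim II by 0.54 and 0.48 on the log2 scale, and with Fucotrim I by 0.27 and 0.18. The Fucotrim I call of MRPL42 was lost without DMSO replicate 1 (edgeR adjusted p = 0.0525), DMSO replicate 2 (0.0777), Fucotrim I replicate 1 (0.102) or Fucotrim I replicate 3 (0.0625).

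**Figure D2:**
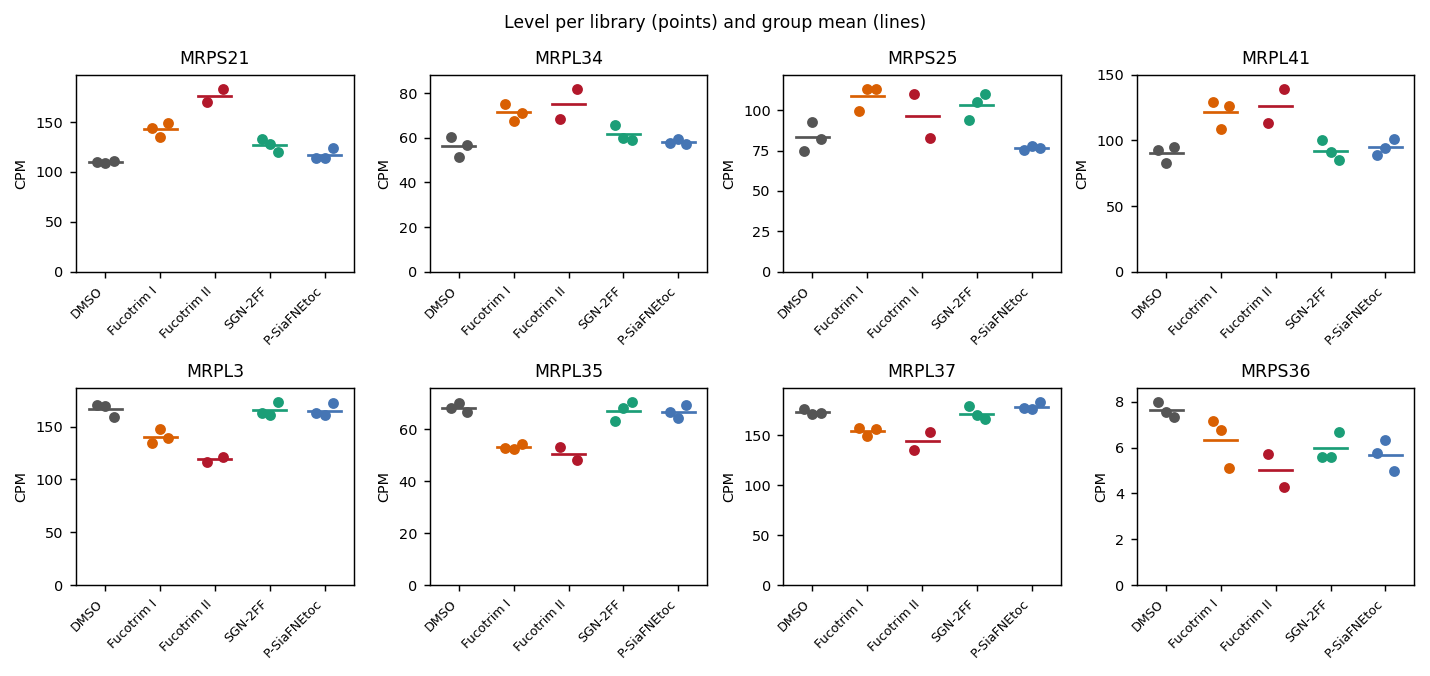
Level in CPM (y axis from 0) of 8 genes in every library, grouped by compound on the x axis, with points for libraries and lines for group means. The Fucotrim points lie above DMSO for MRPS21, MRPL34 and MRPL41 and below DMSO for MRPL3, MRPL35 and MRPL37, for MRPS25 1 Fucotrim II point (110 CPM) lies above the DMSO range and the other (82.6 CPM) within it, and for MRPS36 all points of the 4 inhibitors are below DMSO.

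MRPS36, the gene outside the ribosome, was below DMSO with every inhibitor. It measured 7.97, 7.56 and 7.33 CPM in DMSO, 7.17, 6.75 and 5.11 CPM with Fucotrim I and 5.71 and 4.30 CPM with Fucotrim II. With SGN-2FF it was at 5.61, 5.59 and 6.69 CPM and with P-SiaFNEtoc at 5.77, 6.31 and 4.98 CPM. No treated library reached the lowest DMSO library. The log2 fold changes were −0.25 ± 0.14, −0.62 ± 0.16, −0.35 ± 0.13 and −0.42 ± 0.13, of which the first did not pass (edgeR adjusted p = 0.146, 0.00961, 0.0479 and 0.0203). The SGN-2FF call was lost when DMSO replicate 1, 2 or 3 or SGN-2FF replicate 1 or 2 was left out (edgeR adjusted p between 0.0654 and 0.185), and the P-SiaFNEtoc call without DMSO replicate 1 (0.0638) or P-SiaFNEtoc replicate 3 (0.0876).

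With P-SiaFNEtoc the other calls were MRPL12 and MRPL23 higher and MRPS6 and MRPL33 lower. MRPL12, which also binds the mitochondrial RNA polymerase, was at 158, 144 and 157 CPM in DMSO and at 166, 170 and 179 CPM with P-SiaFNEtoc, at 188, 171 and 176 CPM with Fucotrim I and at 180, 170 and 163 CPM with SGN-2FF. These 3 groups lay above DMSO, by 0.17 ± 0.04, 0.23 ± 0.05 and 0.17 ± 0.05 (edgeR adjusted p = 0.00817, 0.00214 and 0.00748), whereas the Fucotrim II libraries were at 151 and 192 CPM. The P-SiaFNEtoc call of MRPL12 was lost without DMSO replicate 2 (edgeR adjusted p = 0.0509) and its SGN-2FF call without SGN-2FF replicate 1 (0.0727), and 69.5% of its exonic bases lie within ENSG00000262660. MRPS6, the counterpart of bacterial S6, was at 21.3, 22.2 and 19.4 CPM in DMSO and 16.4, 17.2 and 19.3 CPM with P-SiaFNEtoc, a log2 fold change of −0.25 ± 0.08 (edgeR adjusted p = 0.0279). MRPL33 fell by 0.17 on the log2 scale (edgeR adjusted p = 0.0425). MRPS6 lost its call without DMSO replicate 1 or 2 or P-SiaFNEtoc replicate 1 or 2 (edgeR adjusted p between 0.0658 and 0.14), and MRPL33 without DMSO replicate 1 or 3 or any 1 P-SiaFNEtoc library (0.0634 to 0.147).

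Several landmark proteins of the ribosome gave no call in the fit without a GC correction. MRPL11 and MRPL10, at the base of the stalk, had log2 fold changes between −0.09 and 0.06 and between 0.03 and 0.14. MRPL11 was at 90.3, 90.7 and 91.0 CPM in DMSO and overlapped DMSO with each inhibitor. MRPS12, of the decoding centre, had values between 0.09 and 0.15, and MRPL58, a peptidyl-tRNA hydrolase built into the large subunit, between −0.02 and 0.06. The 2 detected paralogs of bacterial S18 were likewise not called, MRPS18A with values from −0.14 to 0.07 and MRPS18C, at 9.02 to 10.4 CPM in DMSO, with values from −0.17 to 0.22. MRPS30, which despite its name belongs to the large subunit, fell with Fucotrim II by 0.27 on the log2 scale (edgeR adjusted p = 0.00932). That call was lost with the replicate block by the titles (edgeR adjusted p = 0.121). A p that misses the threshold does not show that the uncalled genes were unchanged.

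Fold changes were also read against the base composition of the transcript. Transcript GC content of the 75 genes ranged from 34.8% to 66.7%, with a median of 48.0%. Genes of high and low GC content can be compared through the first 150 coding bases of MRPL41 (66.7% GC) and MRPL42 (38.3% GC). MRPL41 rose with both Fucotrims and MRPL42 fell with both. MRPL42 is not the gene of lowest GC content, and the pair is an illustration that does not stand for all 75 genes. The stretches were read from the GENCODE transcripts on hg38 (MRPL41 within chr9:137551879-137552555, MRPL42 within chr12:93467514-93516214, both plus strand) with G and C in capitals. Over the whole coding sequence G and C make up 65.7% of MRPL41 and 39.9% of MRPL42, and over the stretch shown 73.3% and 36.7%.
MRPL41: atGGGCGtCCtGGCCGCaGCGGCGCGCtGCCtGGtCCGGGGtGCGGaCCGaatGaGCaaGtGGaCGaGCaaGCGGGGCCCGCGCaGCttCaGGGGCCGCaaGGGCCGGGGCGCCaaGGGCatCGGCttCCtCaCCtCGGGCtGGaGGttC
MRPL42: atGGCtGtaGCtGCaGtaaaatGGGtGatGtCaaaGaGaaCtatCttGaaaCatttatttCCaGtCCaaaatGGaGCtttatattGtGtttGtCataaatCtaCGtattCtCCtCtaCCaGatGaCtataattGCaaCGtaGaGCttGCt

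Across the 75 genes Spearman's rank correlation between log2 fold change and transcript GC content reached 0.57 for Fucotrim I, 0.67 for Fucotrim II, 0.45 for SGN-2FF and 0.66 for P-SiaFNEtoc. These values describe genes, which are not independent replicates, and the 4 of them share the DMSO libraries. The relation was not particular to ribosomal proteins, since over all genes with a known GC content it was 0.47, 0.53, 0.29 and 0.42. At or above the median GC content 7 of 38 genes rose and 4 fell with Fucotrim II, and below it 2 of 37 rose and 19 fell. With Fucotrim I the counts were 8 higher and 2 lower above the median, and 3 higher and 10 lower below it. All genes tested were split at the same GC content in the same way. With Fucotrim II 2981 of 7450 genes rose and 697 fell at or above it, and 683 of 6951 rose and 3055 fell below it. With Fucotrim I these counts were 2435 and 693 of 7177, and 574 and 2442 of 6811. The rank correlation between fold change and transcript length was −0.40, −0.36, −0.27 and −0.28, beside −0.28, −0.31, −0.27 and −0.22 over all genes. For the number of exons it was −0.40, −0.39, −0.27 and −0.02 over the 75 genes, beside −0.08, −0.12, −0.07 and −0.09 over all genes, a difference that was not tested.

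**Figure D3:**
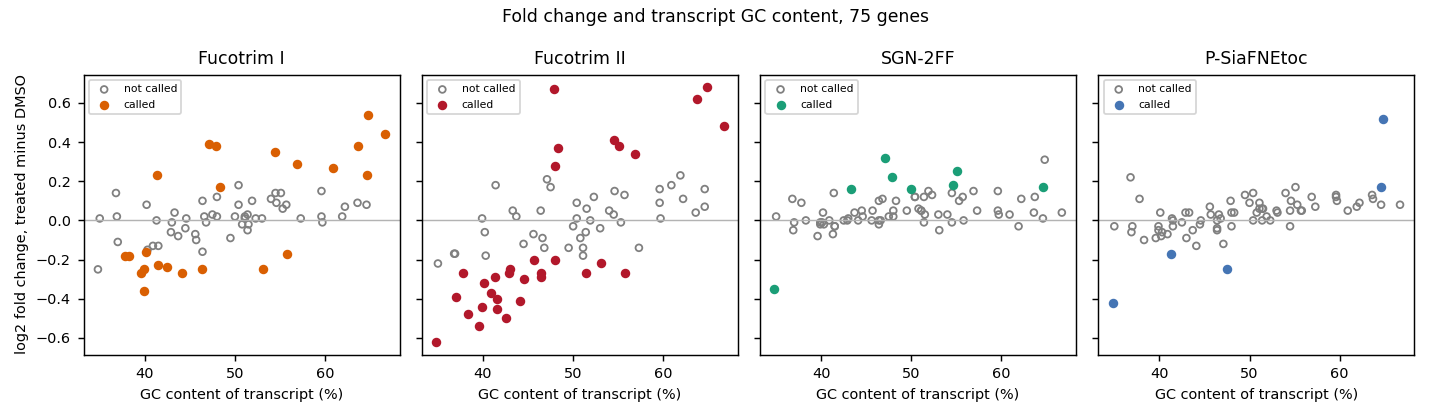
Log2 fold change (treated minus DMSO, y axis) against GC content of the canonical transcript in percent (x axis) for the 75 genes, 1 panel per inhibitor, with filled points for genes called at an adjusted p under 0.05 and open points for the rest. With Fucotrim II most filled points below 48.0% GC lie under 0, and those with the most GC lie above it.

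Replicates of one group also differed in this slope. Relative to the DMSO mean, the rank correlation with GC content over the 75 genes was 0.24, −0.62 and 0.44 in the DMSO libraries themselves, and 0.60, 0.48 and −0.20 in the SGN-2FF libraries. It was 0.64, 0.33 and 0.55 with Fucotrim I, 0.46 and 0.78 with Fucotrim II, and 0.50, 0.59 and 0.63 with P-SiaFNEtoc. DMSO replicate 2 and SGN-2FF replicate 3 thus sloped the other way from the rest. The DMSO mean is made of the DMSO libraries themselves, so slopes of both signs among them follow from the reference. Without DMSO replicate 2 the relation in the fitted fold changes had a rank correlation of 0.49 for Fucotrim I, 0.62 for Fucotrim II, 0.14 for SGN-2FF and 0.48 for P-SiaFNEtoc. Leaving out Fucotrim II replicate 2 gave 0.46, leaving out its replicate 1 gave 0.78, and leaving out SGN-2FF replicate 1 gave 0.20.

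**Figure D4:**
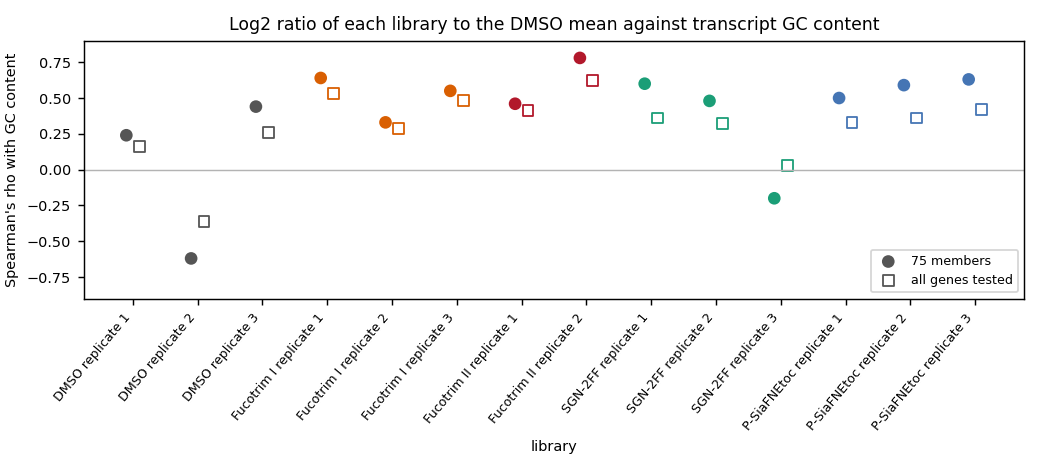
Spearman's rank correlation (y axis) between transcript GC content and the log2 ratio of each library to the DMSO mean, for the 14 libraries (x axis), with filled circles for the 75 genes and open squares for all genes tested. DMSO replicate 2 lies at −0.62 while the other DMSO libraries lie at 0.24 and 0.44, and the Fucotrim and P-SiaFNEtoc libraries lie between 0.33 and 0.78.

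The trend of all genes with GC content was then removed from each library, in a fit added after the data were seen. Over the 75 genes the rank correlation with GC content became −0.20 for Fucotrim I, −0.24 for Fucotrim II, −0.18 for SGN-2FF and −0.15 for P-SiaFNEtoc. They thus kept a weaker trend of the opposite sign, and their corrected values are not free of GC content. In this fit 13 genes rose and 12 fell with Fucotrim I (39.1% of all genes passed this fit) and 12 rose and 20 fell with Fucotrim II (45.9%). The totals were thus similar, but many of the genes were others. With Fucotrim I 13 genes were called in the same direction by both fits, and with Fucotrim II 18. Genes called with each Fucotrim in both fits were MRPS21, MRPL34 and MRPL57, which rose, and MRPL3, MRPL35, MRPL37, MRPL49, MRPS9 and MRPS27, which fell. MRPL37 and MRPL49, with 55.8% and 53.1% GC, fell despite a GC content above the median, and their fitted falls with Fucotrim II became larger, at −0.45 and −0.32. Among the genes described above, the correction removed the Fucotrim I calls of MRPL13, MRPL23, MRPL42, MRPL55, MRPS10, MRPS14 and MRPL12, and the Fucotrim II calls of MRPL23, MRPL33, MRPL53 and MRPS36. The correction also added calls. MRPS18A became called with Fucotrim II, at −0.36 (edgeR adjusted p = 0.0023), and MRPS18C with Fucotrim I and P-SiaFNEtoc, at 0.33 each (0.0455 and 0.0232). MRPL41 (66.7% GC) went from 0.48 to −0.04 with Fucotrim II and was no longer called, and MRPL12 (64.6% GC) went from an uncalled 0.16 to −0.29 (edgeR adjusted p = 0.00233). With SGN-2FF 6 calls were shared by both fits, which left out MRPL12 and MRPS36, and with P-SiaFNEtoc only that of MRPS6, and 23.5% and 11.7% of all genes passed the corrected fit. The part of library preparation in the GC trend was not tested.

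Promoters of these genes were searched for the motifs of factors known from nuclear genes for mitochondrial proteins, namely NRF1 (GCGCA, any base, then GCGC), ETS factors such as GABPA (CCGGAAG), YY1 (ATGGCGGC) and the E-box of MYC-type factors (CACGTG), on both strands. RefSeq promoters (GRCh38.p14, 250 bases before to 50 after the start site) were matched for 67 of the 75 genes. The ETS letters were present in 29 of the 67 (43.3%), against 10.7% of all promoters and 18.6% of those of genes tested with Fucotrim I. The YY1 letters were in 17 (25.4%, against 3.21% and 6.04%), the NRF1 letters in 7 (10.4%, against 6.28% and 11.5%) and the E-box in 6 (8.96%, against 7.43% of all promoters and 1128 of the 11239 tested). The first ETS match of a promoter lay at a median of 32 bases before the start site (position −32). Of the 17 YY1 matches 14 began between 10 and 40 bases after the start site, and in 14 of the 17 genes the coding sequence opens with the same letters, so there they spell the start codon and the alanine codons after it. The promoters of MRPS21, which rose, and of MRPL3, MRPS10 and MRPS9, which fell, are shown from 120 bases before the start site, with the motif matches in capitals, to let the arrangement be read beside the values above. MRPS21 (chr1:150293741-150293890, plus strand) holds 2 ETS matches in reverse orientation, MRPL3 (chr3:131502942-131503091, minus strand) holds 1, MRPS10 (chr6:42217812-42217981, minus strand) holds an ETS and a YY1 match, and MRPS9 (chr2:105037949-105038118, plus strand) holds an NRF1 and a YY1 match. The first 2 are shown to 30 bases after the start site, within the first exon, and the others to 50, past the start codon.
MRPS21: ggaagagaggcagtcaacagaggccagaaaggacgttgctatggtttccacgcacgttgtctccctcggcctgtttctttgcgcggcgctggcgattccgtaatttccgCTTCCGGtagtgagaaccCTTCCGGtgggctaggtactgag
MRPL3: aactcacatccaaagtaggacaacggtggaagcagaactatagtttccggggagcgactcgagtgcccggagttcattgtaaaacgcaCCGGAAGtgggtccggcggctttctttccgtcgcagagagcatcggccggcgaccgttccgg
MRPS10: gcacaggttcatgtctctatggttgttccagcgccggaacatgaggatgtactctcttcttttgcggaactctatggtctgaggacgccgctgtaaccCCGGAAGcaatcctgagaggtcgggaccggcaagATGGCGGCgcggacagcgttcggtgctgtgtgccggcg
MRPS9: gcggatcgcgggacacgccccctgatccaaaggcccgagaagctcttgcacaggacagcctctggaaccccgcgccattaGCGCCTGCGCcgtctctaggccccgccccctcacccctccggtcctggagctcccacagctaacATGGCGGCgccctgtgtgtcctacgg

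Among genes called with a Fucotrim, ETS letters were spread over both directions and YY1 letters were seen only in genes that fell. Neither pattern was tested. ETS letters were in 5 of 11 promoters of genes that rose with either Fucotrim (45.5%) and in 9 of 21 of those that fell (42.9%). YY1 letters were in 0 of the 11 and in 7 of the 21 (33.3%), among them MRPS9 and MRPS10. These counts describe letters in a window, are not a test of any factor, and were not corrected for the base composition of the promoters.

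Of 5 proteins of the mitochondrial ribosome that carry other names, 2 rose with each Fucotrim in the fit without a GC correction. With SGN-2FF and P-SiaFNEtoc 0 of them were called. Among all genes tested 43.8% were called with Fucotrim I and 51.4% with Fucotrim II, and 5 genes are too few to compare with these shares. CHCHD1, of the small subunit, was at 47.0, 44.9 and 44.9 CPM in DMSO, 51.6, 50.5 and 52.7 CPM with Fucotrim I and 54.7 and 58.4 CPM with Fucotrim II, without overlap. Its log2 fold changes were 0.18 ± 0.06 and 0.31 ± 0.07 (edgeR adjusted p = 0.0217 and 0.0052), the first of which was lost without DMSO replicate 2 (0.0789), DMSO replicate 3 (0.0871) or Fucotrim I replicate 3 (0.0607). The second was lost with the replicate block by the titles (edgeR adjusted p = 0.0942). AURKAIP1 rose by 0.23 ± 0.05 and 0.24 ± 0.08, and both turned negative with the GC correction (−0.05 and −0.23). With that correction AURKAIP1 was called lower with Fucotrim II (edgeR adjusted p = 0.00556). Its Fucotrim II call was also lost without any 1 DMSO library (edgeR adjusted p between 0.0661 and 0.153) or without Fucotrim II replicate 2 (0.17). Without the correction DAP3, PTCD3 and GADD45GIP1 were not called with any inhibitor, with values between −0.11 and 0.14. With it DAP3 was called higher for Fucotrim II, at 0.16 (edgeR adjusted p = 0.0373), and PTCD3 for Fucotrim I, at 0.15 (0.00429). The corrected fit also called 1 of the 5 proteins lower with P-SiaFNEtoc.

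Factors that assemble the mitochondrial ribosome and that work with it were taken from fixed lists. Of 24 assembly factors tested 2 rose and 2 fell with Fucotrim I, 1 rose and 3 fell with Fucotrim II, 1 rose and 2 fell with SGN-2FF and 0 rose and 2 fell with P-SiaFNEtoc. These shares of 16.7%, 16.7%, 12.5% and 8.33% were below the 43.8%, 51.4%, 20.6% and 16.3% of all genes tested. MTERF4, which brings the rRNA methyltransferase NSUN4 to the large subunit, was at 117, 130 and 121 CPM in DMSO, 89.6, 102 and 110 CPM with Fucotrim I, 107 and 95.7 CPM with Fucotrim II, 99.3, 110 and 100 CPM with SGN-2FF and 111, 104 and 115 CPM with P-SiaFNEtoc. Every treated library was below DMSO, by −0.29 ± 0.07, −0.28 ± 0.08, −0.23 ± 0.05 and −0.15 ± 0.05 (edgeR adjusted p = 0.00138, 0.0133, 0.00152 and 0.0262). The calls with Fucotrim II and P-SiaFNEtoc were lost without DMSO replicate 2 (0.0557 and 0.143), and the latter also without DMSO replicate 3 (0.0576) or P-SiaFNEtoc replicate 2 (0.176). NSUN4 fell with Fucotrim I by 0.20 on the log2 scale. This call was lost with DESeq2 (adjusted p = 0.0615), with the GC correction (edgeR adjusted p = 0.0742) and without DMSO replicate 1 or 3 or Fucotrim I replicate 2 or 3 (0.0542 to 0.0891). FASTKD2, an RNA-binding protein needed for the large rRNA, fell with Fucotrim II by 0.39, which with the GC correction was −0.14 and not called.

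Of 20 translation factors 3 rose and 4 fell with Fucotrim I, 3 rose and 7 fell with Fucotrim II, 2 rose and 2 fell with SGN-2FF and 0 rose and 2 fell with P-SiaFNEtoc. The share called was below that of all genes tested (43.8%, 51.4%, 20.6% and 16.3%) with each inhibitor, though only slightly with Fucotrim II and SGN-2FF. These counts thus do not set translation factors apart from other genes. GUF1, a back-translocating GTPase, was at 57.2, 56.9 and 59.6 CPM in DMSO, at 42.6, 52.1 and 43.8 CPM with Fucotrim I and at 40.9 and 38.9 CPM with Fucotrim II. All were below DMSO, by −0.32 ± 0.07 and −0.54 ± 0.07 (edgeR adjusted p = 0.0012 and 0.000248), and smaller falls of −0.16 ± 0.05 and −0.17 ± 0.05 were called with SGN-2FF and P-SiaFNEtoc (0.0356 and 0.0232). The SGN-2FF call of GUF1 was lost without DMSO replicate 1 or 3 or SGN-2FF replicate 1 or 2 (edgeR adjusted p from 0.056 to 0.171), and its P-SiaFNEtoc call without DMSO replicate 3 or P-SiaFNEtoc replicate 2 or 3 (0.0588 to 0.102). Both were also lost with the GC correction, at −0.11 and −0.08. HEMK1, which methylates release factors, rose by 0.41 ± 0.07 with SGN-2FF, by 0.50 ± 0.11 with Fucotrim I and by 0.72 ± 0.13 with Fucotrim II, and its Fucotrim I call was lost without Fucotrim I replicate 2 (edgeR adjusted p = 0.0677) and with the GC correction (0.062), where its value was still 0.45. MTRF1, a release factor, rose from 5.06, 6 and 5.51 CPM in DMSO to 10 and 7.86 CPM with Fucotrim II, a log2 fold change of 0.69 ± 0.15 (edgeR adjusted p = 0.00479).

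The rRNAs of the same ribosome were listed as well, although the libraries were prepared from polyadenylated RNA. RNR2, the large rRNA, was at 6007, 6608 and 5691 CPM in DMSO, 18671 and 12937 CPM with Fucotrim II and 8577, 8890 and 8772 CPM with SGN-2FF, and neither group overlapped DMSO. RNR2 rose by 1.37 ± 0.15 on the log2 scale in the former and by 0.53 ± 0.04 in the latter (edgeR adjusted p = 8.22e-05 and 4.86e-09). With Fucotrim I the libraries were at 7347, 10407 and 13581 CPM, a difference of 0.78 ± 0.26 that did not pass (edgeR adjusted p = 0.0732), and with P-SiaFNEtoc it was 0.09 ± 0.05. RNR1, the small rRNA, had log2 fold changes of 0.59, 1.33, 0.42 and −0.06 in the same order of Fucotrim I, Fucotrim II, SGN-2FF and P-SiaFNEtoc, and was called with Fucotrim II and SGN-2FF. Beside these RNAs the 75 protein genes had medians of −0.06 with Fucotrim II and 0.04 with SGN-2FF.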

How the data were processed

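The authors prepared stranded polyadenylated RNA libraries, sequenced single reads, and, after trimming (Cutadapt), used HISAT2 for alignment to hg38 and featureCounts for counting. They deposited raw counts per gene as a separate table for every inhibitor, and the DMSO columns recur in all 4. The annotation release, strand setting and treatment of multi-mapped reads are not given in the sources used here. The labels call the libraries of a group biological replicates. The 2 Fucotrim II libraries analysed are numbered differently in titles and library descriptions. The SGN-2FF table was joined by gene number.

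Each inhibitor was fitted with DMSO over the whole table in edgeR 4.0.16 (R 4.3.3), with filterByExpr (minimum count 10, minimum total 15), TMM scaling and the robust quasi-likelihood test, and p-values were adjusted by Benjamini-Hochberg over all genes tested. The standard error was derived from the log2 fold change and the F statistic. CPM values share 1 TMM scaling of the 14 libraries. The fit was tested on simulated data. Alternatives used DESeq2 1.42.0, limma-voom (limma 3.58.1), no filter, DESeq2 size factors, a replicate block, libraries left out in turn, all 14 libraries in 1 fit, no mitochondrially encoded genes, an adjusted p under 0.01 and, added after the data were seen, lowess offsets (span 0.3) for GC content. Transcript lengths, GC content and positions came from GENCODE on hg38. The members and lists were chosen with earlier results of these data known. Named genes were the 4 largest rises and falls per inhibitor among non-overlapping calls, the genes nearest 0, 11 landmarks, proteins under other names and the largest changes among assembly and translation factors. MRPL34, MRPL57, MRPL37, MRPL49, MRPS27, MRPS10 and MRPL53, and further genes listed for the GC-corrected fit, were chosen after their values were seen. Libraries held 12553094 to 19981453 counts on genes.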

Additional observations from a re-analysis of the deposited data

How the results depend on the processing

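The 4 comparisons were repeated under other settings, all planned but the GC content correction. The median log2 fold change with Fucotrim I moved to 0.00 without a filter on low counts and ran from 0.00 to 0.03 with 1 library left out. With Fucotrim II the genes called higher ran from 7 to 23 with 1 library left out. Deviations of same-numbered libraries from their group means had correlations between −0.25 and 0.16 by the titles. By the library descriptions they were 0.25 and 0.08 for Fucotrim II. Whether same-numbered libraries were paired is thus not settled, and the replicate block was kept as an alternative. With it the Fucotrim I calls went from 23 to 29 by the numbers of the titles. The Fucotrim II calls dropped to 17, of which 10 lower, by the numbers of the titles, and stood at 34 by those of the library descriptions. With SGN-2FF the calls ran from 4 to 11 with 1 library left out, those higher from 4 to 10 and those lower from 0 to 1. They were 3, all higher and 0 lower, in 1 fit of all 14 libraries, 4 and 0 at an adjusted p under 0.01, and the count lower was 0 with DESeq2, limma-voom and the replicate block. With P-SiaFNEtoc the calls ran from 2 to 4 with 1 library left out, those higher from 0 to 3 and those lower from 1 to 2. They were 0 in each direction in 1 fit of all 14 libraries, 1 higher and 0 lower with DESeq2 and at an adjusted p under 0.01, and those higher were 1 with limma-voom and 4 with the replicate block. The GC content correction left 1 lower with P-SiaFNEtoc. It also reversed the sign of AURKAIP1 with Fucotrim I (−0.05) and Fucotrim II (−0.23), of MRPL12 with both (−0.05 and −0.29), of MRPL41 with Fucotrim II (−0.04) and of MTG1, an assembly GTPase, with Fucotrim II (−0.22). The cause of these changes was not tested. Over the other values of single genes under these settings, 2673 stayed on their side of the threshold, 185 lost their call and 48 gained one. The 2673 include values that were not called in either fit, whose sign did not have to hold.

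Called under every alternative, GC correction and replicate block included, were 12 of 23 calls with Fucotrim I, 10 of 32 with Fucotrim II, 1 of 8 with SGN-2FF (MRPS21) and 0 of 5 with P-SiaFNEtoc. With 2 or 3 libraries a group, genes of few counts such as MRPL23 and MRPS36 carry the largest errors. Where 1 Fucotrim II library was left out, the remaining one was assumed to vary like DMSO. All calls share 3 DMSO libraries. Set against their own mean, which brings slopes of both signs, 1 of them had a trend with GC content opposite to the others.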
